A study of Mus musculus with 16 samples.

Results

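The colony-stimulating factors (CSFs) and their receptors are represented here by 6 of the 24421 genes in the deposited count table. These are the ligand Csf1 and the 5 receptor genes Csf1r, Csf3r, Csf2ra, Csf2rb and Csf2rb2. They were picked by gene symbol, with earlier results of these data known. The ligand genes Csf2 and Csf3, also in the count table, were not among the 6 and are given with the other family genes. The 6 genes were followed in 16 bulk RNA-seq libraries of CD11b+ cells from subcutaneous MC38-Ova tumours, a mouse colon adenocarcinoma line that expresses ovalbumin. The hosts were adult C57BL/6 mice carrying the Kaede transgene, a green fluorescent protein that violet light switches to red. Tumours were illuminated through the skin, so that cells then inside the tumour became Kaede-red, while leukocytes that entered afterwards were Kaede-green. The 4 groups were Kaede-green and Kaede-red cells collected 24h or 72h post-photoconversion, with 4 libraries each, and all were labelled as untreated controls of 1 batch. The sort kept live CD45+ and Kaede+ cells that lacked TER119, a red cell marker, and NK1.1. According to the study, replicates of a group were tumours of separate mice. It is not stated whether a Kaede-green and a Kaede-red library came from the same tumour. By the study's schedule, photoconversion fell on the same day after tumour injection for both times. Tumours of 72h were thus older than those of 24h and came from other mice, so time after photoconversion and tumour age cannot be told apart. A rise between the times is a difference between groups of mice, not a change followed in the same cells.

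CSF1, also called M-CSF, binds the receptor tyrosine kinase CSF1R, which keeps monocytes and macrophages alive and drives their differentiation. It shares this receptor with interleukin-34. CSF2 (GM-CSF) is bound by the alpha chain CSF2RA and signals through the common beta chain CSF2RB, which also serves the receptors for interleukin-3 and interleukin-5. Mice carry an additional beta chain, Csf2rb2, that works with interleukin-3. CSF3 (G-CSF) acts through CSF3R, best known on neutrophils but also present on monocytes. In tumours, CSF1R is widely used as a drug target to deplete macrophages.

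All 6 genes passed the filter on low counts, which left 9642 genes to be tested. Totals per library lay between 3216858 and 15423085 counts, of which the ribosomal RNA gene Rn45s took 79.1 to 93.4% in Kaede-green and 55.8 to 84.9% in Kaede-red libraries. This left 468092 to 912689 counts outside Rn45s in Kaede-green libraries and 758192 to 5472477 in Kaede-red libraries. Counts were scaled between libraries by TMM, and levels are given as CPM, counts per 1000000 counts of the scaled library. Among the Kaede-red libraries at 24h, replicates 3 and 4 stood apart with Rn45s shares of 83.1 and 84.9%, against 66.2 and 68.2% in replicates 1 and 2. Of the genes behind the sort, Ptprc (CD45) had 73.6 to 158 CPM and Itgam (CD11b) 59.5 to 165 CPM in the 16 libraries. Summed over 12 neutrophil markers, the level was 3.05 to 6.79 CPM, with Ngp at 0 in every library, and 8 eosinophil, basophil and mast cell markers together stayed at or below 0.838 CPM. In such bulk samples, fewer cells of a type and less RNA per cell cannot be told apart.

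In the mm10 genome with the GENCODE M21 annotation, Csf1 is at chr3:107741048-107760469 on the minus strand, Csf3r at chr4:126024550-126044440 on the plus strand and Csf2ra at chr19:61223957-61228429 on the minus strand. The 2 beta chain genes are neighbours on chromosome 15. Csf2rb is at chr15:78325752-78353847 on the plus strand and Csf2rb2 at chr15:78282507-78305721 on the minus strand, with 20030 bases between them. Their coding sequences were 95.2% identical, with 2503 of 2628 aligned bases shared and a longest identical run of 242 bases. A read that falls wholly within shared sequence cannot be assigned to 1 of the pair by its letters. Of all 150-base windows of the spliced transcripts, 3.47% of Csf2rb and 3.59% of Csf2rb2 were also found in the other gene, and of 50-base windows 18.4 and 19.0%. The 60-base coding stretch with the most differences shows what separates them, with the 13 differing bases in capitals. It lies in exon 5 of Csf2rb (chr15:78338893-78338952) and exon 4 of Csf2rb2 (chr15:78294379-78294438), each written 5′ to 3′ on the strand of its gene.
Csf2rb: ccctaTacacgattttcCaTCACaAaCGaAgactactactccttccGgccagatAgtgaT
Csf2rb2: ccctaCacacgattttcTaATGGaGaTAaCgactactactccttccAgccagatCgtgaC

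Per length of spliced transcript, Csf1r and Csf2ra were the most abundant of the 6 genes and Csf1 the least. The order over all 16 libraries was Csf1r with a mean of 11.6 CPM per kilobase, Csf2ra with 8.53, Csf2rb with 5.56, Csf2rb2 with 3.43, Csf3r with 2.78 and Csf1 with 0.695. Csf1r exceeded Csf2ra in 11 of 16 libraries, and the ranges of the pair overlapped in every group but Kaede-red at 72h. In those 4 libraries Csf1r stood at 20.7 to 21.7 CPM per kilobase and Csf2ra at 9.02 to 11.5. Csf2ra was above Csf2rb in 16 of 16 libraries, Csf2rb above Csf2rb2 in 15 and Csf2rb2 above Csf3r in 14, although their ranges over all libraries overlapped. Csf3r was above Csf1 in 16 of 16 libraries with no overlap of the ranges. The ligand was thus the lowest of the 6 in each library, at 0.397 to 1.05 CPM per kilobase.

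Csf1r was higher in Kaede-red than in Kaede-green cells at 72h and rose in Kaede-red cells between 24h and 72h. At 24h the CPM values of replicates 1 to 4 were 29.5, 59.3, 27.1 and 41.6 in Kaede-green and 61.9, 63.1, 39.5 and 32.0 in Kaede-red libraries. By 72h they were 43.0, 24.1, 28.7 and 46.9 in Kaede-green and 108, 103, 107 and 106 in Kaede-red libraries. The groups overlapped at 24h, whereas at 72h every Kaede-red library lay above every other library of the experiment. Kaede-red cells at 72h averaged 106 ± 2.11 CPM (SD, n = 4), against 49.1 ± 15.8, 39.4 ± 14.7 and 35.7 ± 11.02 CPM in Kaede-red at 24h, Kaede-green at 24h and Kaede-green at 72h. The log2 fold change of Kaede-red against Kaede-green was 0.95 ± 0.17 (SE) over both times (edgeR adjusted p = 0.000135). It was 1.58 ± 0.25 at 72h (edgeR adjusted p = 2.79e-05) and 0.32 ± 0.25 at 24h (edgeR adjusted p = 0.503). From 24h to 72h, Csf1r rose by 1.11 ± 0.24 in Kaede-red cells (edgeR adjusted p = 0.00409), while the Kaede-green difference was -0.14 ± 0.25 (edgeR adjusted p = 0.916). The interaction of colour and time, that is the log2 fold change at 72h minus that at 24h, was 1.25 ± 0.35 and did not pass the threshold (edgeR adjusted p = 0.0683). It passed with DESeq2 (adjusted p = 0.033), with no filter (edgeR adjusted p = 0.00858), with blocks of time and replicate number (edgeR adjusted p = 0.0215), without Kaede-red replicate 1 of 24h (log2 1.39, edgeR adjusted p = 0.0441) and without Kaede-green replicate 4 of 72h (log2 1.42, edgeR adjusted p = 0.0427). Csf1r lies at chr18:61100598-61132149 (mm10, plus strand) and overlaps the antisense gene Hmgxb3 and the microRNA gene Mir6983. Pdgfrb, whose gene ends 15536 bases upstream of Csf1r on the same strand, had at most 25 counts in any library.

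**Figure D1:**
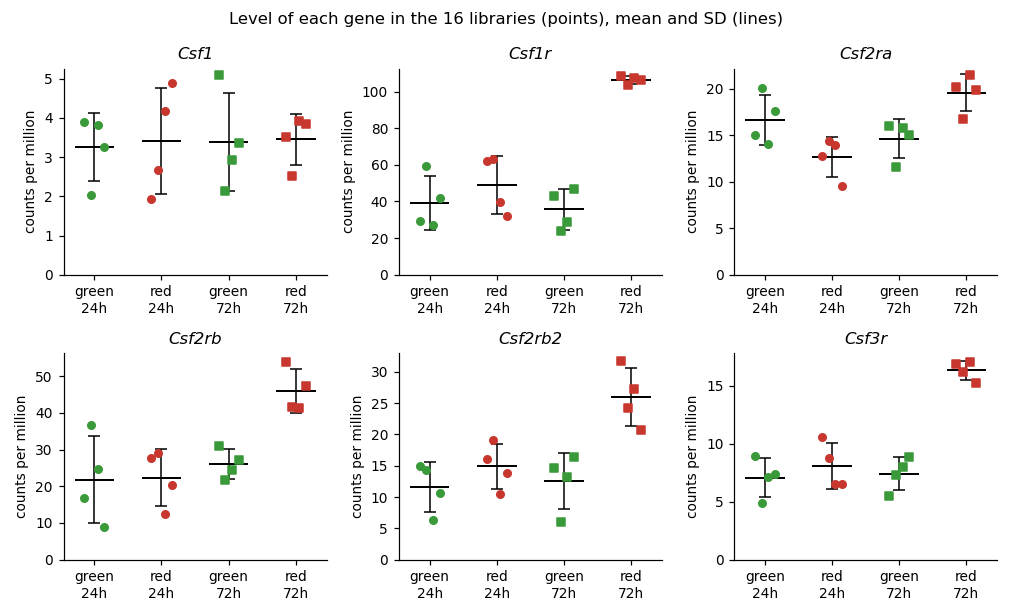
Level of each gene in CPM (vertical axes, starting at 0) in the 16 libraries, with circles for 24h, squares for 72h, green and red for Kaede fluorescence, and lines for the mean and SD of each group of 4. For all 5 receptors the Kaede-red squares stood above all Kaede-red circles, with Csf1r at 103 to 108 CPM, while Csf1 overlapped between all groups.

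Csf3r, the G-CSF receptor, followed the same pattern at a lower level. At 24h it had 8.91, 4.90, 7.15 and 7.35 CPM in Kaede-green replicates 1 to 4 and 10.6, 8.74, 6.52 and 6.51 CPM in the Kaede-red replicates. The values at 72h were 5.47, 7.31, 8.02 and 8.82 CPM in Kaede-green and 16.9, 16.2, 17.1 and 15.3 CPM in Kaede-red libraries. Again the Kaede-red libraries of 72h lay above all others, and the remaining groups overlapped. Csf3r was higher in Kaede-red cells over both times by log2 0.67 ± 0.17 (SE, edgeR adjusted p = 0.00576) and at 72h by 1.12 ± 0.24 (edgeR adjusted p = 0.000944), with 0.21 ± 0.26 at 24h (edgeR adjusted p = 0.702). It rose by 1.00 ± 0.22 from 24h to 72h in Kaede-red cells (edgeR adjusted p = 0.00433) and differed by 0.09 ± 0.28 in Kaede-green cells (edgeR adjusted p = 0.958). The 12 neutrophil markers together had 3.90 to 5.61 CPM in Kaede-green and 3.08 to 6.00 CPM in Kaede-red libraries at 24h, and 3.05 to 6.56 and 3.76 to 6.79 CPM at 72h. S100a8 had at most 12 counts and S100a9 at most 21 in a library, and Csf3r had 12 to 726. Mmp8, a neutrophil collagenase, was the only marker of the list that could be tested, with 10 to 134 counts in Kaede-red libraries, and Mmp9 had up to 49 counts. At 72h Mmp8 had a mean of 3.40 CPM in Kaede-red and 1.36 CPM in Kaede-green libraries, a log2 difference of 1.29 that did not pass (edgeR adjusted p = 0.0539). S100a8 and S100a9, too low to be tested, went the other way at 72h. Their means were 0.172 and 0.317 CPM in Kaede-red and 1.10 and 1.15 CPM in Kaede-green libraries. The part of these markers in the Csf3r values was not tested.

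Csf2ra, the GM-CSF-specific alpha chain, rose in Kaede-red cells with time but was not called between the colours. Kaede-green libraries had 15.04, 20.03, 14.04 and 17.6 CPM at 24h and 16.03, 11.6, 15.8 and 15.04 CPM at 72h, in the order of replicates 1 to 4. Kaede-red libraries had 12.8, 14.3, 13.9 and 9.54 CPM at 24h and 20.2, 16.8, 21.4 and 19.9 CPM at 72h. At 24h the Kaede-red values lay below or at the lower end of the Kaede-green range, and at 72h all 4 lay above it. The log2 fold change of Kaede-red against Kaede-green was -0.40 ± 0.21 (SE) at 24h and 0.42 ± 0.21 at 72h, and neither passed the threshold (edgeR adjusted p = 0.289 and 0.169). Over both times it was 0.01 ± 0.15 (edgeR adjusted p = 0.983), with a 95% interval from -0.30 to 0.31. The interaction of colour and time was 0.82 ± 0.30 (edgeR adjusted p = 0.169). From 24h to 72h, Csf2ra rose in Kaede-red cells by 0.64 ± 0.20 (edgeR adjusted p = 0.0391). That call was lost without any 1 of 10 libraries, namely all 8 Kaede-red libraries and Kaede-green replicates 1 and 3 of 72h. The fold change then lay between 0.51 and 0.71 and the highest adjusted p was 0.185, without Kaede-red replicate 4 of 24h.

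Csf2rb, the common beta chain, had 16.7, 36.8, 24.8 and 8.98 CPM in Kaede-green libraries at 24h and 31.0, 21.6, 24.6 and 27.2 CPM at 72h. In Kaede-red libraries it had 27.6, 29.1, 12.3 and 20.3 CPM at 24h and 54.0, 41.7, 41.2 and 47.5 CPM at 72h. The Kaede-red libraries of 72h were the highest, and the 24h groups overlapped widely. Kaede-red against Kaede-green gave log2 0.82 ± 0.27 (SE) at 72h (edgeR adjusted p = 0.0296), 0.03 ± 0.28 at 24h (edgeR adjusted p = 0.971) and 0.43 ± 0.19 over both times (edgeR adjusted p = 0.117). The call at 72h was lost without Kaede-green replicate 2 or 3 (log2 0.72 and 0.78) or Kaede-red replicate 1 or 4 of that time (0.74 and 0.81), with adjusted p from 0.057 to 0.112. Over both times, Csf2rb was called without Kaede-green replicate 2 of 24h (log2 0.62, edgeR adjusted p = 0.0173) and without Kaede-red replicate 3 of 24h (0.53, edgeR adjusted p = 0.0445). Csf2rb rose by 1.04 ± 0.26 from 24h to 72h in Kaede-red cells (edgeR adjusted p = 0.0116). This call was lost without Kaede-red replicate 3 or 4 of 24h (log2 0.87 and 0.99) or Kaede-red replicate 1 of 72h (0.95), with adjusted p of at most 0.0678.

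Csf2rb2, the interleukin-3-specific beta chain, had 15.04, 14.3, 6.38 and 10.6 CPM in Kaede-green libraries at 24h and 14.6, 6.09, 13.1 and 16.3 CPM at 72h. The Kaede-red libraries had 16.03, 19.2, 10.5 and 13.9 CPM at 24h and 31.7, 24.3, 27.3 and 20.7 CPM at 72h. As with its neighbour, the Kaede-red libraries of 72h were above all others. Csf2rb2 was higher in Kaede-red cells over both times, by log2 0.73 ± 0.19 (SE, edgeR adjusted p = 0.00589), and at 72h, by 1.04 ± 0.26 (edgeR adjusted p = 0.00474). At 24h the difference was 0.42 ± 0.28 (edgeR adjusted p = 0.429). Its rise from 24h to 72h in Kaede-red cells was 0.79 ± 0.24 (edgeR adjusted p = 0.0385). Leaving out any 1 of 7 libraries lost this call: Kaede-red replicates 1, 3 and 4 of 24h, Kaede-red replicates 1, 2 and 3 of 72h, and Kaede-green replicate 3 of 72h. The fold change then lay between 0.68 and 0.84, with adjusted p up to 0.162.

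Because the pair shares sequence, the split of reads between both genes is less certain than their sum. Csf2rb2 took 20.5 to 54.2% of the summed counts in Kaede-green libraries at 24h, 36.8 to 46.0% in Kaede-red libraries at 24h, 21.98 to 37.5% in Kaede-green libraries at 72h and 30.3 to 39.9% in Kaede-red libraries at 72h. These ranges overlapped. The mean share was 3.83 percentage points higher in Kaede-red cells over both times, which did not pass a two-sided exact permutation test (p = 0.398, 0.596 after adjustment over 9 tests). Summed into 1 gene, the pair was higher in Kaede-red cells over both times by log2 0.53 (edgeR adjusted p = 0.0236).

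Csf1, the ligand, was not called in any comparison. Its counts were low, at 7, 5, 15 and 8 in Kaede-green libraries at 24h, 14, 7, 12 and 13 in Kaede-green libraries at 72h, 22, 22, 23 and 76 in Kaede-red libraries at 24h and 90, 100, 26 and 183 in Kaede-red libraries at 72h. In CPM the group means were 3.26 ± 0.859 and 3.38 ± 1.26 (SD, n = 4) for Kaede-green and 3.42 ± 1.36 and 3.45 ± 0.648 for Kaede-red cells at 24h and 72h. All 4 groups overlapped. The log2 fold change of Kaede-red against Kaede-green with both times combined was 0.05 ± 0.27 (SE, edgeR adjusted p = 0.924), with a 95% interval from -0.50 to 0.60. In Kaede-red cells the difference between 72h and 24h was 0.00 ± 0.32 (edgeR adjusted p = 0.999), with an interval from -0.65 to 0.65. Differences within these bounds were not excluded.

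Across the 6 genes, 3 were called higher in Kaede-red cells over both times (Csf1r, Csf2rb2 and Csf3r), where 9.96% of all tested genes were called higher. None was called at 24h by edgeR or DESeq2 and none had an unadjusted p under 0.05 by edgeR (by DESeq2, Csf2ra had an unadjusted p of 0.0417), where 7.51% of all genes were called in either direction. At 72h, 4 were called higher (Csf1r, Csf3r, Csf2rb2 and Csf2rb) beside 8.07% of all genes. All 5 receptors had their Kaede-red libraries above all Kaede-green libraries at 72h, which held for 13% of tested genes. In Kaede-green cells no gene of the 9642 was called between 24h and 72h by edgeR (0%), 835 had an unadjusted p under 0.05, and DESeq2 called 3 higher and 10 lower. The log2 fold changes of the 6 members there lay between -0.18 (Csf2ra) and 0.24 (Csf2rb). All 5 receptors rose in Kaede-red cells between 24h and 72h, where 4.91% of all tested genes did, and none of their libraries overlapped between the times, as for 11.8% of genes. The share called higher there grew with gene length, from 1.34% in the shortest quartile of tested genes to 8.1% in the longest. At 72h it was 4.48% in the shortest quartile and 8.1 to 11% in the others. By exon bases Csf2ra lies in the shortest quartile, and the other receptors lie in quartiles 3 and 4. None of the 6 was called for the interaction of colour and time by edgeR, where 0.767% of genes were called in either direction. There, Csf1r, Csf2ra, Csf3r and Csf2rb had an unadjusted p under 0.05, and DESeq2 called Csf1r. The interaction was 0.91 ± 0.35 (SE) for Csf3r, 0.80 ± 0.39 for Csf2rb, 0.63 ± 0.38 for Csf2rb2 and -0.03 for Csf1, with edgeR adjusted p from 0.201 to 0.987. The comparisons share libraries, so their calls are not independent of each other.

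**Figure D2:**
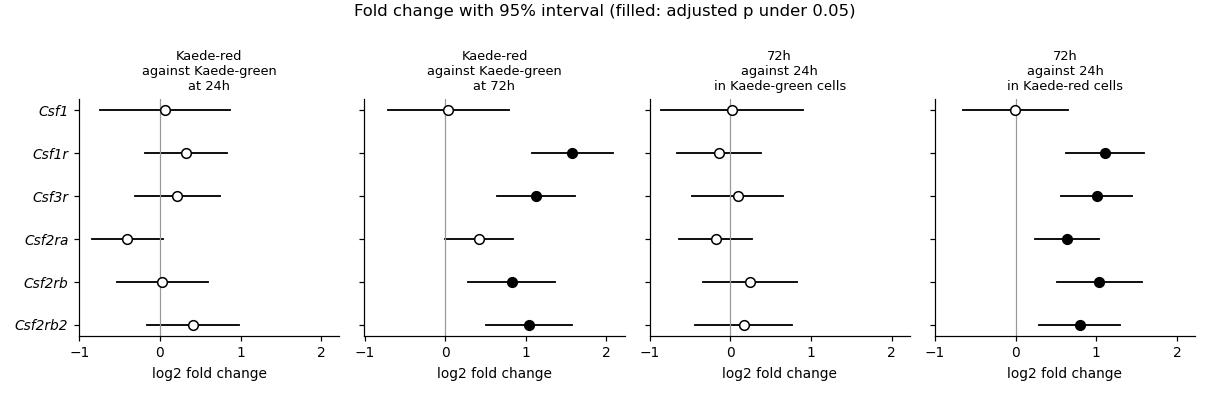
Log2 fold change of each gene (points) with its 95% interval (lines) in 4 comparisons, where filled points have an edgeR adjusted p under 0.05. Filled points appear for 4 receptors in Kaede-red against Kaede-green cells at 72h and for 5 receptors in 72h against 24h of Kaede-red cells, and the intervals of Csf1 span 0 in every panel.

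The Rn45s share had a median of 69.25% in Kaede-red and 89.61% in Kaede-green libraries. The receptor calls changed when this share entered the fit. With that share as a covariate in the fit, none of the 6 genes was called in any comparison. Far fewer genes of the whole table were called in that fit, with 51 higher and 105 lower of 9642 over both times (960 and 990 without the covariate), 27 and 75 at 72h (778 and 845), and 77 and 33 from 24h to 72h in Kaede-red cells (473 and 363). The Csf1r fold change over both times was then 0.29 (edgeR adjusted p = 0.79) and at 72h 0.87 (edgeR adjusted p = 0.258). From 24h to 72h in Kaede-red cells it was 0.84 for Csf1r and 0.89 for Csf3r (edgeR adjusted p = 0.0572 for each). Kaede-red replicates 1 and 2 of 24h, with Rn45s shares of 66.2 and 68.2%, lay inside the range of the Kaede-red libraries of 72h (55.8 to 73.8%). Their Csf1r levels of 61.9 and 63.1 CPM were below the 103 to 108 CPM of 72h, and their Csf3r levels of 10.6 and 8.74 CPM were below 15.3 to 17.1 CPM. When replicates 3 and 4 of that group were left out, none of the 5 receptors was called between 24h and 72h in Kaede-red cells, with the fold change of Csf1r at 0.73 (edgeR adjusted p = 0.3) and that of Csf3r at 0.72 (edgeR adjusted p = 0.291). Of all 10385 genes tested there, 2 were called higher and 7 lower in this comparison. The calls at 72h kept their direction and their side of the threshold, with Csf1r at 1.57 (edgeR adjusted p = 1.23e-05). The part of the Rn45s share in the receptor differences was not tested.

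**Figure D3:**
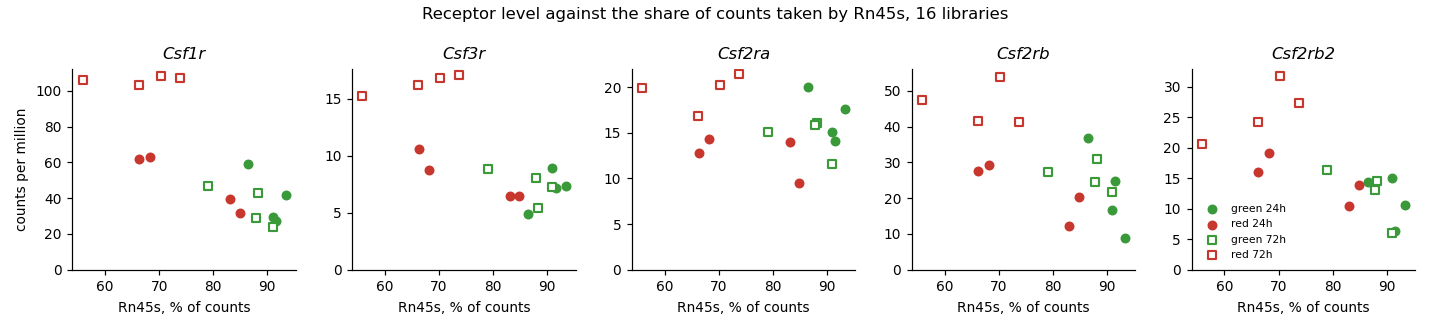
Level of each receptor in CPM (vertical axes, starting at 0) against the percentage of a library's counts taken by Rn45s (horizontal axes, from about 55 to 95%), with filled circles for 24h, open squares for 72h, and green and red for Kaede fluorescence. The 2 Kaede-red circles at 66.2 and 68.2% lie below the Kaede-red squares in the panel of Csf1r, and the 2 at 83.1 and 84.9% lie among the Kaede-green libraries.

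Ratios of genes within a library do not depend on the scaling between libraries. The log2 ratio of Csf1r to Csf3r counts was 2.63 in Kaede-red and 2.31 in Kaede-green cells as the mean over both times, a difference of 0.32 (two-sided exact permutation test within times, p = 0.227, adjusted p = 0.512 over 9 tests). In Kaede-red libraries of 72h this ratio lay between 2.65 and 2.80, and in Kaede-green libraries of 72h between 1.70 and 2.94. The log2 ratio of Csf1 to Csf1r counts was -4.41 in Kaede-red and -3.42 in Kaede-green cells, so the ligand was lower relative to its receptor by 0.98 in Kaede-red cells, with overlap. This did not pass after adjustment (two-sided exact permutation test, p = 0.0322, adjusted p = 0.145). At 24h the groups overlapped, with a difference of -0.37 (exact permutation p = 0.657, adjusted p = 0.739). At 72h the values were -4.94, -5.35, -4.75 and -4.78 in Kaede-red and -3.03, -3.41, -3.25 and -3.75 in Kaede-green libraries, without overlap. The difference of -1.60 had the smallest p that 4 against 4 libraries allow (exact permutation p = 0.0286, adjusted p = 0.145). Without Kaede-red replicates 3 and 4 of 24h, the difference over both times was -1.43 and passed (exact permutation p = 0.00286, adjusted p = 0.0257). That omission was chosen after seeing the data and took out the highest ratios of the group. They were -3.217 and -2.698, against -4.975 and -4.532 in replicates 1 and 2. The difference could thus only grow, and the pass cannot be read as support for it.

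**Figure D4:**
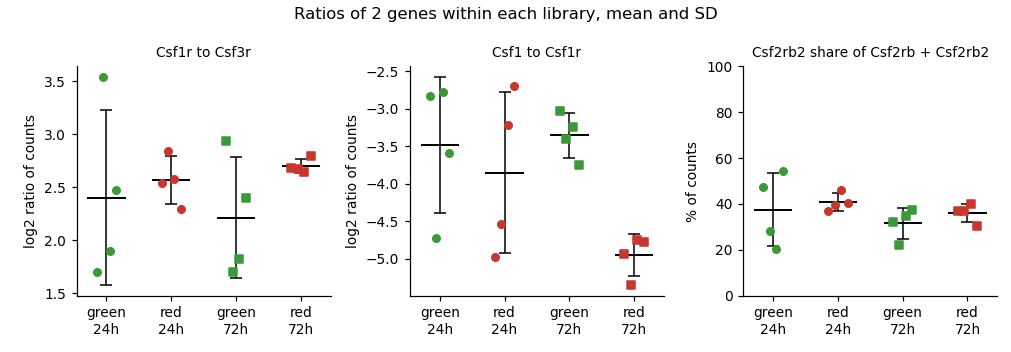
Ratios of genes within each library: log2 of Csf1r to Csf3r counts, log2 of Csf1 to Csf1r counts, and Csf2rb2 as a percentage of the summed Csf2rb and Csf2rb2 counts, with circles for 24h, squares for 72h and lines for the mean and SD of 4 libraries. In the middle panel the Kaede-red squares (-5.35 to -4.75) lie below the green squares (-3.75 to -3.03).

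The sort markers themselves differed between the groups, which bears on what the receptors are measured against. Ptprc rose by log2 0.67 ± 0.19 (SE, edgeR adjusted p = 0.0237) and Itgam by 0.98 ± 0.19 (edgeR adjusted p = 0.00181) from 24h to 72h in Kaede-red cells. Relative to Ptprc counts in the same library, Csf1r was 0.99 higher on the log2 scale in Kaede-red than in Kaede-green cells at 72h, and Csf3r 0.50 higher, each without overlap of the libraries. The Csf2rb and Csf2rb2 ratios to Ptprc overlapped between the colours at 72h (differences of 0.18 and 0.47). For Csf2ra that difference was -0.22. Between 24h and 72h in Kaede-red cells, the ratio to Ptprc rose without overlap for Csf1r (0.47), Csf2rb (0.41) and Csf3r (0.34), but overlapped for Csf2rb2 (0.12) and Csf2ra (-0.06). Csf2ra relative to the summed Csf2rb and Csf2rb2 counts was lower by 0.50 in Kaede-red cells at 72h, at -2.08 to -1.67 against -1.53 to -1.25, with no overlap. At 24h this difference was -0.59, and from 24h to 72h the ratio differed by -0.36 in Kaede-red and -0.45 in Kaede-green cells, each with overlap. These ratios are given as values without a test. Csf2ra has 1860 exon bases, while Csf2rb has 5228 and Csf2rb2 4740. Over all tested genes, the log2 fold change of Kaede-red against Kaede-green at 72h also differed with length. Its median was -0.27 in the shortest quartile, which holds Csf2ra, and 0.14 and 0.10 in quartiles 3 and 4, which hold Csf2rb2 and Csf2rb. The part of gene length in these ratios was not tested.

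Marker RNA of several cell types differed between the groups. For comparison, of all 9642 tested genes 309 were called higher and 415 lower in Kaede-red than in Kaede-green cells at 24h. The numbers were 778 and 845 at 72h, and 960 and 990 over both times. From 24h to 72h in Kaede-red cells, 473 were called higher and 363 lower. Of 9 macrophage markers, 8 were higher in Kaede-red than in Kaede-green cells at each time, and none was called between 24h and 72h in Kaede-red cells. Their summed level was 509 to 833 CPM in Kaede-red libraries at 24h and 752 to 798 CPM at 72h, against 240 to 418 and 317 to 376 CPM in Kaede-green libraries. Of 7 monocyte markers, 4 were lower in Kaede-red than in Kaede-green cells at 24h, 1 was lower at 72h, and 4 rose in Kaede-red cells between 24h and 72h (among them Vcan, Chil3 and Fn1), with summed levels of 552 to 650 CPM at 24h and 609 to 840 CPM at 72h. Plac8, Ly6c2 and Ccr2 did not pass, with log2 fold changes of -0.62, 0.63 and 0.09. Vcan rose by 1.35 ± 0.25 (SE, edgeR adjusted p = 0.00133). The summed level of 7 fibroblast markers was 12.5 to 19.5 CPM in Kaede-red libraries at 72h and 46.0 to 51.4 CPM in Kaede-green libraries. Endothelial markers (5 genes) together had 21.9 to 36.7 CPM in Kaede-red libraries at 72h and 9.75 to 18.96 CPM in Kaede-green libraries, and 2 of the 3 that could be tested, Pecam1 and Kdr, were called higher. Cdh5, the other tested marker, had a lower median in Kaede-red than in Kaede-green libraries of both times (0.72 and 1.93 CPM). Over both times 2 of the 3 were called higher and 1 lower. Of 5 markers of dividing cells, Cdk1 and Mki67 fell in Kaede-red cells from 24h to 72h (log2 -1.35 and -0.83, edgeR adjusted p = 0.0437 and 0.0476), with summed levels of 24.5 to 56.5 CPM at 24h and 20.05 to 27.7 CPM at 72h. The part of these shifts in the receptor values was not tested.

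Of the other family genes, the ligands Csf2, Csf3, Il34, Il3 and Il5 and the receptor chain Il5ra had 0 to 9 counts in a library. Csf2, the ligand of Csf2ra, had 6 counts in all, 5 of them in Kaede-red replicate 2 of 72h, and Csf3, the ligand of Csf3r, had 1 count in 1 library. Il3 and Il5 had 0 counts in 16 libraries, where 3 counts would have been 0.0162 CPM. Il34, the other ligand of CSF1R, had 2 counts over the 8 Kaede-green libraries and 28 over the 8 Kaede-red libraries, and Il5ra had 3 counts in all. These totals correspond to 0.0813 and 0.175 CPM for Il34, with exact Poisson 95% intervals of 0.00984 to 0.294 and 0.116 to 0.253 that cover counting error only. Il3ra, the interleukin-3 alpha chain, was the only one of the 7 genes of this list that could be tested. It had counts in 15 of 16 libraries, 0 to 11 in Kaede-green and 6 to 148 in Kaede-red libraries (mean 2.89 CPM in the latter at 72h), and was not called in any comparison, with log2 0.91 ± 0.53 (SE) for Kaede-red against Kaede-green at 72h (edgeR adjusted p = 0.255).

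The receptors signal through adaptors, kinases and phosphatases at the membrane and through JAK kinases and STAT factors. Of 14 genes of proximal CSF1R signalling, 3 were called higher in Kaede-red cells over both times, among them Inpp5d, the lipid phosphatase SHIP1 (log2 0.52), and Ptpn6, the tyrosine phosphatase SHP-1 (0.48). Tyrobp, the adaptor DAP12, and Fyn, a Src family kinase, were lower (log2 -1.10 and -0.50). The median over the list was 0.17, against 0.06 over all 9642 tested genes, of which 960 were called higher and 990 lower. From 24h to 72h in Kaede-red cells, 8 of these 14 rose and none fell, with a median of 0.69 against -0.01 over all genes. The 8 were Inpp5d, Fyn, Pik3cd, Cbl, Sos1, Lyn, Plcg2 and Fgr. In that comparison 4.91% of all tested genes were called higher. Without Kaede-red replicates 3 and 4 of 24h, 2 of all 10385 genes tested were called higher there. Of 10 tested genes of JAK-STAT signalling, Jak1 (0.51) and Stat3 (0.48) were higher in Kaede-red cells over both times and none was lower. Between 24h and 72h in Kaede-red cells 4 rose, namely Stat3 (1.04), Jak1 (0.78), Stat5b (0.77) and the feedback inhibitor Socs3 (0.63). In the list of 6 transcription factors known to act at Csf1r, only Cebpa was called over both times (1.02, edgeR adjusted p = 0.00242), and the median from 24h to 72h in Kaede-red cells was 0.44 with none called. Spi1, which encodes the factor PU.1, had 0.24 over both times (edgeR adjusted p = 0.297).

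Genes that respond to GM-CSF divided. Of 9 tested, 3 were higher in Kaede-red cells over both times, namely the chemokine gene Ccl22, the nuclear receptor gene Pparg (log2 1.16) and the survival gene Bcl2l1 (1.05), and Osm (-1.31) and Mcl1 (-0.47) were lower. Of all 9642 tested genes, 960 were called higher and 990 lower. Ccl22 had 0 counts in all 8 Kaede-green libraries and 3 to 54 in each Kaede-red library, which made it at least 9.16-fold higher when the Kaede-green group is set at 3 counts in all. It passed the filter on low counts through the Kaede-red libraries alone. Between the colours it could therefore only be called higher. None of the 9 changed between 24h and 72h in Kaede-red cells by the test, with a median of 0.09. The lists were written with earlier results of these data known and are given as counts.

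**Figure D5:**
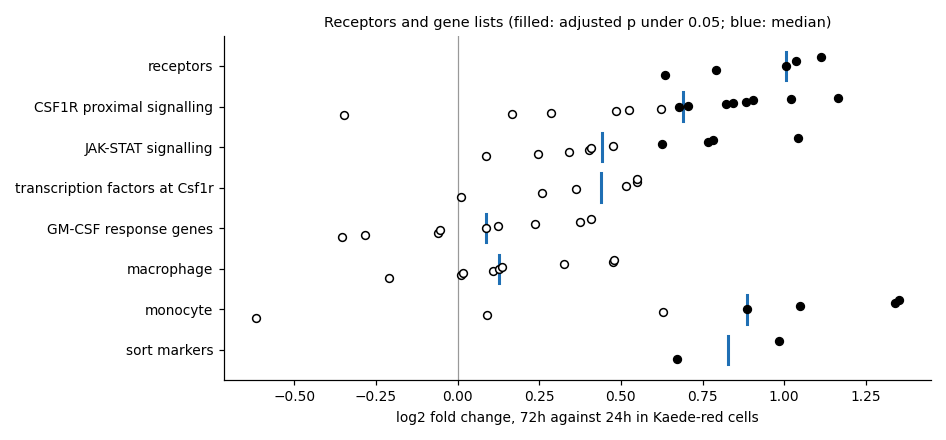
Log2 fold change from 24h to 72h in Kaede-red cells for the 5 receptors and for the tested genes of 7 lists, where filled points have an edgeR adjusted p under 0.05 and blue lines are medians. All 5 receptors, 8 of 14 CSF1R signalling genes, 4 of 7 monocyte markers and both sort markers are filled, and none of 9 macrophage markers is. Of all tested genes, 4.91% were called higher in this comparison.

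Over the 16 libraries, the genes most like Csf1r in log2 CPM were Gnai2, a G protein subunit (Pearson's r = 0.962), Laptm5, a lysosomal membrane protein (0.959), and Psap, the precursor of the saposins (0.955), out of 1386 genes with a mean log2 CPM of at least 4. Csf3r was most like Ehd4 (0.943), Cic (0.91) and Man2b1 (0.909). For Csf2rb they were Tor1aip1 (0.937), Prkcd (0.936) and Stat3 (0.914), and for Csf2rb2 Ccnd1, the cell cycle gene cyclin D1 (0.952), Lrrc25 (0.893) and Tmem106a (0.892). Csf2ra was closest to Nono (0.873), Tmbim6 (0.848) and Actb (0.828). The highest values for Csf1 were 0.591 for both Atp2a2 and Ddx17 and 0.53 for Plec. Among the members themselves, r over the 16 libraries was highest for Csf1r with Csf2rb2 (0.861) and lowest for Csf1 with Csf2rb (-0.141). These correlations are a description, since the libraries share groups, depth and Rn45s share. After the group means were removed, r for Csf1r with Csf3r went from 0.758 to -0.033 and for Csf1r with Csf2rb2 from 0.861 to 0.654. For Csf1r with Csf2rb it went from 0.704 to 0.444, and with Csf2ra it rose from 0.679 to 0.75. Gnai2, Laptm5 and Psap then had 0.863, 0.883 and 0.821 with Csf1r.

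RefSeq promoter sequence (GRCm38.p6) was at hand for Csf1, Csf2ra, Csf2rb2 and Csf3r, and was read because the receptors among them rose together in Kaede-red cells while Csf1 did not. The 250 bases before each start site were searched on both strands for GAGGAA, a core of sites of the myeloid factor PU.1, for TTGCNNAA, a C/EBP-type sequence, and for TTCNNNGAA, the sequence of STAT factors. GAGGAA was present in the windows of Csf2ra (2 matches), Csf2rb2 (1) and Csf3r (1) and not in that of Csf1, and it was found in 23.3% of all 32851 promoter windows of this length. TTCNNNGAA was present once, in Csf2rb2, and in 7.02% of all windows, and TTGCNNAA in none of the 4 and in 9.56% of all. The RefSeq start sites of Csf3r (chr4:126024659) and Csf2ra (chr19:61228418) lie inside the genes as GENCODE M21 places them. The 3′ ends of these 2 windows therefore overlap the annotated genes. The GAGGAA match of Csf3r lies within that overlap, and the matches of Csf2ra reach into it. A match is a description of the letters and not a site in use. The windows of the 3 receptors are shown 5′ to 3′ on the strand of the gene, with the matches of either kind in capitals: chr19:61228419-61228668 (minus strand), chr15:78305722-78305971 (minus strand) and chr4:126024409-126024658 (plus strand).
Csf2ra: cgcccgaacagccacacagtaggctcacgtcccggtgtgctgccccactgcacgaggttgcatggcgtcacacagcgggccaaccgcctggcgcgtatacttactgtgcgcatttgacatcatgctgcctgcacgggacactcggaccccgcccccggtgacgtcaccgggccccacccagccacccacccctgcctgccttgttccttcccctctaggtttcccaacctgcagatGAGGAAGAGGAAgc
Csf2rb2: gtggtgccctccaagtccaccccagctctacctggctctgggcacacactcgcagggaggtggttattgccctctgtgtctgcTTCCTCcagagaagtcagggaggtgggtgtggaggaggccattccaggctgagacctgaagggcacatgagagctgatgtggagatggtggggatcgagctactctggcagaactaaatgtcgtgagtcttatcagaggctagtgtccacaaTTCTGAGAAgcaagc
Csf3r: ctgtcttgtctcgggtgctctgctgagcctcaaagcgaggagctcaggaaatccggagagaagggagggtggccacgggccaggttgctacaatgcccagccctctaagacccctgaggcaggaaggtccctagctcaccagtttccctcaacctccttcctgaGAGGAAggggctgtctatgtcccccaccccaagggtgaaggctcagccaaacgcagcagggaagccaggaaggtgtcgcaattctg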

How the data were processed

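Bulk RNA-seq libraries of sorted CD11b+ cells were prepared, per the labels, with a stranded total RNA kit. From reads cut by Trim Galore and placed on mm10 by HISAT2, the authors deposited raw counts per gene made with featureCounts. The counting annotation, strand setting and treatment of reads shared between genes are not given in the sources used here. Each library's own file of counts was used.

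Counts were tested with edgeR 4.0.16 in R 4.3.3 (TMM, filterByExpr with default settings, 1 mean per group, quasi-likelihood test) in a single fit of 16 libraries. Adjusted p-values are Benjamini-Hochberg values over the 9642 genes tested, called under 0.05. Over the tested genes, the standard error of the log2 fold change had a median of 0.27 for both times combined and 0.32 to 0.42 between pairs of groups. Within-library ratios used a pseudocount of 0.5 (none for the share) and two-sided exact permutation tests in Python 3.11.15, adjusted over 9 tests. Levels per length used exon bases of coding transcripts. All 6 genes are named, with genes of the pathway lists called over both times (at most 3 each way, apart from those not reported here by name) and the 3 genes most like each member. Vcan, Plac8, Ly6c2, Ccr2, Chil3, Fn1, Mmp8, Mmp9, Pecam1, Kdr, Cdh5, Cdk1, Mki67 and the genes that rose only between the times were named after their values were seen. The members and lists were chosen with earlier results of these data known. P-values measure the spread between these libraries. Replicate pairs differed by chi-square values of 2.75 to 68.1 per gene over 24 pairs, so none was a copy. The tests were tried on simulated counts. The alternatives were DESeq2 1.42.0, other scalings, no filter, fits of only the groups compared, blocks for replicate number, Rn45s as a covariate or left out, the beta chains summed, and each library left out. Leaving out 2 Kaede-red libraries of 24h together and removing the trend with gene length (96.3% of tested genes had a length) were added after seeing the data.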

Additional observations from a re-analysis of the deposited data

How the results depend on the processing

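The calls of Csf1r, Csf3r and Csf2rb2 in Kaede-red against Kaede-green cells with both times combined held in each fit without 1 library, as did those of the same 3 genes at 72h and those of Csf1r and Csf3r from 24h to 72h in Kaede-red cells. Scaling by library size alone raised the median log2 fold change of all genes to 2.33 at 24h, 2.04 at 72h and 2.20 with the times combined (9318 genes higher and 10 lower over both times), and 6 of the 6 members were called in each. Relative to that median, Csf1r was still 0.87 higher over both times and 1.41 at 72h. From 24h to 72h in Kaede-red cells this scaling called 0 of 6 (of all 9642 genes, 7 higher and 2 lower), RLE factors 3 (374 and 427), the fit with the Rn45s share 0 (77 and 33) and the fit without Kaede-red replicates 3 and 4 of 24h 0 (2 and 7 of 10385). RLE factors lost Csf2ra (0.59, adjusted p = 0.0606) and Csf2rb2 (0.75, adjusted p = 0.0546), and no filter lost Csf2ra (0.71, adjusted p = 0.0613). With the length trend removed, Csf2rb at 72h (0.68, edgeR adjusted p = 0.073) and Csf2rb2 from 24h to 72h in Kaede-red cells (0.68, edgeR adjusted p = 0.0781) were no longer called. With the Rn45s share, 0 members were also called over both times and 0 at 72h. For the interaction of colour and time, 1 member, Csf1r, was called with DESeq2, with no filter and with the replicate block within time. Without those 2 Kaede-red libraries the difference in the log2 ratio of Csf1 to Csf1r over both times was -1.43 and passed. This omission, chosen after seeing the data, took out the highest ratios of their group and could only enlarge the difference. The cause of these changes was not tested.

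Directions turned only for differences that were not called in the main analysis. Csf2ra over both times became -0.0267 with DESeq2, -0.023 with RLE factors, -0.0267 with Rn45s left out and -0.15 with the Rn45s share. With that share, Csf2rb was -0.16 over both times and -0.49 at 24h, Csf1r -0.28 and Csf3r -0.0337 at 24h. Csf1 at 72h became -0.0091 with DESeq2, -0.0088 with RLE factors, -0.0032 with Rn45s left out and -0.11 with the length trend removed. Removing that trend gave -0.0499 for Csf1 over both times and -0.0265 for Csf2rb at 24h. Scaling by library size alone gave 1.91 for Csf2ra at 24h, 0.60 for Csf1r and 0.53 for Csf2ra from 24h to 72h in Kaede-green cells, and 0.62 for Csf1 from 24h to 72h in Kaede-red cells. The latter difference was also 0.0818 with no filter, 0.004 with only the groups compared, 0.0295 with the replicate block, 0.34 with the Rn45s share and 0.55 without the 2 Kaede-red libraries. The interaction of Csf1 was 0.0392 with no filter, 0.0139 with the replicate block within time, 0.19 with the Rn45s share and 0.53 without the 2 libraries, whose omission also gave Csf1 -0.24 over both times and -0.50 at 24h.

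With each library left out in turn, 3 to 4 members were called over both times, 0 to 0 at 24h, 3 to 4 at 72h, 0 to 0 in Kaede-green cells, 2 to 5 in Kaede-red cells and 0 to 1 for the interaction. The log2 fold changes that changed sign ranged from -0.0834 to 0.16 for Csf1 and -0.0591 to 0.0743 for Csf2ra over both times, from -0.20 to 0.28 for Csf1 and -0.23 to 0.40 for Csf2rb at 24h, and from -0.15 to 0.26 for Csf1 at 72h. In Kaede-green cells they ranged from -0.22 to 0.18 for Csf1, -0.31 to 0.13 for Csf1r, -0.0273 to 0.60 for Csf2rb, -0.0895 to 0.38 for Csf2rb2 and -0.0329 to 0.19 for Csf3r. Those of Csf1 ranged from -0.20 to 0.27 in Kaede-red cells and from -0.23 to 0.24 for the interaction. The log2 ratio of Csf1r to Csf3r differed by 0.21 to 0.51 over both times, -0.0732 to 0.54 at 24h and 0.31 to 0.73 at 72h. That of Csf1 to Csf1r differed by -1.19 to -0.80, -0.79 to 0.000783 and -1.73 to -1.46, and the Csf2rb2 share by 0.997 to 6.61, -2.42 to 8.81 and 1.21 to 6.39 percentage points.

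Replicate numbers were not taken as pairs, because it is not stated that they pair libraries. Same-numbered Kaede-green and Kaede-red libraries correlated by -0.018 to 0.153 in their deviations from the group means, above 0.1 in 1 of 8 pairs. Of the 8, 2 correlated best with their own number. Such a check cannot show whether 2 libraries came from the same tumour. With the replicate block, 3 members were called over both times, 0 at 24h, 4 at 72h, 0 in Kaede-green cells, 5 in Kaede-red cells and 0 for the interaction. The 468092 to 912689 counts outside Rn45s in Kaede-green libraries limit what can be seen of low genes such as Csf1.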
